A study of Mus musculus with 18 samples.

Results

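The comparison described here set the livers of mice that ate a low-fat diet with PFNA against the livers of mice that ate the same diet with PFOS. It covers 6 of the 18 arrays of the series, 3 from PFNA-fed and 3 from PFOS-fed mice, chosen by their titles. PFNA is perfluorononanoic acid and PFOS is perfluorooctane sulfonic acid. Both molecules carry an equally long chain of fluorinated carbons, which ends in a carboxylic acid in PFNA and in a sulfonic acid in PFOS, so the pair differs by its acid head group. All mice were C57BL6 males. They were 6 weeks old when feeding began, ate freely for 12 weeks and were killed at 18 weeks. The low-fat PFNA, low-fat PFOS and low-fat control groups took 10% of their energy from fat, and the control group received no compound. High-fat PFNA and high-fat PFOS groups, at 45% of energy from fat, were used for a comparison of the 2 diets, and a high-fat control group completed the series. Each group had 3 biological replicates with 1 array each. Whether tissue of several animals was pooled and which doses were given is not stated in the sources used here, so it cannot be said that PFNA and PFOS were given at matched doses, and every difference below is between the diets as fed.

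Perfluorinated acids resemble fatty acids, bind to serum proteins and collect in the liver. In mouse liver they are known to act through nuclear receptors. PPARA, the receptor for fatty acids, switches on genes of peroxisomal and mitochondrial fatty acid oxidation and of lipid droplets. CAR and PXR, the receptors for foreign compounds, switch on cytochromes P450 of the Cyp2b, Cyp2c and Cyp3a families, glutathione transferases and transporters.

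RNA of whole liver was measured on a gene-level array with 34472 probes, and the deposited signals were read as log2 values. The median signal lay between 4.43 and 4.59 in every array, and arrays correlated pairwise at 0.9749 to 0.9913. Hepatocyte markers averaged 12.7 to 12.8 in the PFNA arrays, 12.6 to 12.8 in the PFOS arrays and 12.7 to 12.9 in the control arrays, so the labelled tissue carried its defining RNAs. Markers of exocrine pancreas averaged 3.44 to 3.68 over these 9 arrays, below the array median. Low-fat PFOS replicate 3 stood apart from its group. On the first principal component of all 18 arrays, which held 17.91% of the variance, the PFNA replicates scored −13.2 to −10.3, PFOS replicates 1 and 2 both scored −10.9 and PFOS replicate 3 scored 32.9. High-fat PFNA replicate 3 scored 32.4 and the 3 high-fat PFOS arrays scored 27.8 to 38.6. The number of probes more than 1 log2 unit from the mean of the other replicates of the group was 161 to 306 in the 3 PFNA arrays and PFOS replicates 1 and 2, and 660 in PFOS replicate 3. Its signals correlated at 0.9823 to 0.9831 with PFOS replicates 1 and 2, at 0.9875 to 0.9889 with the 3 high-fat PFOS arrays and at 0.9833 to 0.9895 with the 3 high-fat PFNA arrays. Its group was taken from its label, and every mean for PFOS below includes it unless stated. Whether a sample was exchanged or carried over was not tested. Results are therefore also given from a fit without low-fat PFOS replicate 3 and high-fat PFNA replicate 3. Both were omitted on account of their values, so that fit is not independent evidence.

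No probe was called different between PFNA and PFOS on the low-fat diet. Of 34472 probes, 0 (0%) passed an adjusted p of 0.05 in limma, and the lowest adjusted p was 0.998. Unadjusted, 1351 probes (3.92%) had a p under 0.05. Without the 2 arrays that stood apart there were again 0 calls (0%), 1193 probes (3.46%) under the unadjusted threshold and a lowest adjusted p of 0.317. In the same model PFNA against control gave 195 calls (0.566% of probes), 129 higher and 66 lower, and PFOS against control gave 134 calls (0.389%), 97 higher and 37 lower. Leaving out any 1 of the 6 arrays concerned moved these counts by over 1.5 times, to between 26 (without PFNA replicate 3) and 127 (without control replicate 3) for PFNA and between 22 (without PFOS replicate 1) and 260 (without PFOS replicate 3) for PFOS. Those comparisons with the control share the 3 control arrays, so their calls are not set against each other.

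The absence of calls does not show that the compounds act alike, and the intervals of the difference say how far apart they could be. The 95% confidence interval of PFNA minus PFOS lay within 1 log2 unit on either side of 0 for 33159 probes, 96.2% of all. The median half-width of the interval was 0.36 log2 units. Among the 241 probes called in either compound against control, the interval lay within 1 log2 unit for 207 (85.9%). That held for 151 of the 165 probes called higher (91.5%) and for 56 of the 76 called lower (73.7%). These probes were selected by the same PFNA and PFOS arrays, so their shares depend on that selection and are not read as a property of the genes. Only 43 probes had an estimated difference above 1 log2 unit in size. The 3 PFNA arrays all lay above the 3 PFOS arrays for 1591 probes (4.62%) and all lay below for 1504 (4.36%).

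**Figure D1:**
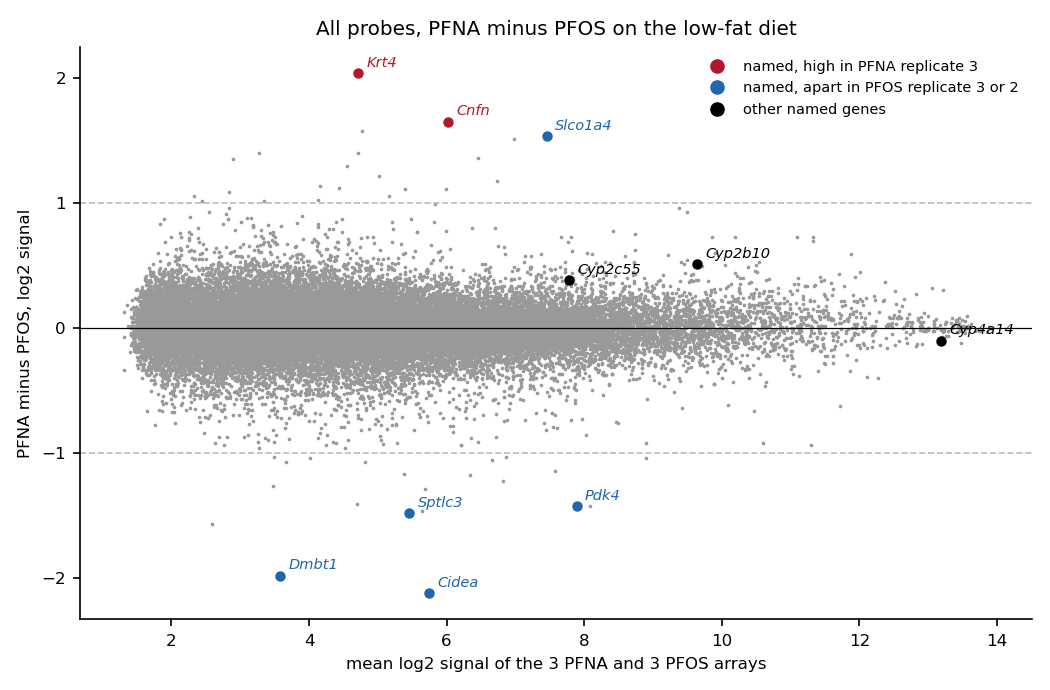
Difference of PFNA minus PFOS (log2 signal, vertical axis) against the mean log2 signal of the 6 arrays (horizontal axis) for all 34472 probes on the low-fat diet; dashed lines mark 1 log2 unit. The probes farthest from 0 include Krt4 and Cnfn, high in 1 PFNA array, and Cidea, Sptlc3, Pdk4 and Dmbt1, high in 1 PFOS array, while Cyp2b10 and Cyp2c55 lie within 1 log2 unit.

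Of 30 measured CAR and PXR targets, 6 were called higher with PFNA than in control and 6 with PFOS, in comparisons that share the control arrays. Over all 22180 genes 112 (0.505%) were called higher with PFNA and 80 (0.361%) with PFOS. Cyp2b10, the classical CAR target of mouse liver, had log2 signals of 9.44, 10.34 and 9.91 in PFNA livers, 9.59, 10.63 and 7.94 in PFOS livers and 4.58, 3.81 and 4.17 in control livers. Every exposed array lay above every control array, and the PFNA and PFOS arrays overlapped, with PFOS replicate 3 the lowest of the 6. PFNA minus PFOS was 0.51 (SE 0.67, interval −0.91 to 1.93), and −0.21 (interval −1.26 to 0.84) without the 2 arrays that stood apart. Against control, Cyp2b10 rose by 5.71 with PFNA (adjusted p = 0.00125) and by 5.20 with PFOS (adjusted p = 0.00391).

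Cyp2c55, a P450 that oxidises arachidonic acid, had signals of 7.43, 8.40 and 8.08 with PFNA, 7.48, 8.43 and 6.85 with PFOS and 3.87, 4.20 and 4.69 in control. The PFNA and PFOS arrays again overlapped, and the difference was 0.38 (SE 0.47, interval −0.60 to 1.36), or 0.01 (interval −0.66 to 0.69) without the 2 arrays. It rose against control by 3.72 with PFNA (adjusted p = 0.00196) and by 3.33 with PFOS (adjusted p = 0.00552).

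Cyp2b10 and Cyp2c55 had the largest estimated changes against control, with PFNA and with PFOS, of the P450 genes named here, and their promoters are shown to give the sequence beside these values. Each runs from 250 bases before to 50 bases after the gene's start on the plus strand, from RefSeq on GRCm38.p6: Cyp2b10 at chr7:25897408-25897707 and Cyp2c55 at chr19:39006769-39007068. Both strands were searched for AGGTCA, the half-site that nuclear receptors bind, and for TATAAA, the TATA box. The search words do not overlap in these windows, and capitals mark the matches.
Cyp2b10: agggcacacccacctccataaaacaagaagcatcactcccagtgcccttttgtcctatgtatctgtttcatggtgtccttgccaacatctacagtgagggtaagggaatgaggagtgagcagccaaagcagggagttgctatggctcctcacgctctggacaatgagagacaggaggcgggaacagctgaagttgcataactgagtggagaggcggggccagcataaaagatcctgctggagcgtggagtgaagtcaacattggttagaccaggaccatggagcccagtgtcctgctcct
Cyp2c55: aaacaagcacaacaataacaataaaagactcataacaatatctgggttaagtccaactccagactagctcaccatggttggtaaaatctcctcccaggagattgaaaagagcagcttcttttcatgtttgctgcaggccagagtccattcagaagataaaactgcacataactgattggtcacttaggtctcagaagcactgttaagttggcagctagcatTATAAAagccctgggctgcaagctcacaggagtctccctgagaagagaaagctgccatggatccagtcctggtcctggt
Only Cyp2c55 holds TATAAA here, and AGGTCA is in neither window. Sequence outside the windows and variants of these words were not searched, so receptor sites elsewhere are not addressed. Of 32851 promoters of this length in the table, 5340 (16.3%) hold AGGTCA and 4473 (13.6%) hold TATAAA.

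The glutathione transferase Gstm3 had signals of 8.71, 8.31 and 9.95 with PFNA, 9.59, 8.06 and 7.75 with PFOS and 4.68, 5.15 and 5.78 in control. Its PFNA and PFOS values interleaved, with a difference of 0.52 and a wide interval of −0.85 to 1.89 (SE 0.65), or 0.17 without the 2 arrays. Gsta4, the glutathione transferase that conjugates lipid aldehydes, was measured more evenly, at 9.43, 9.18 and 9.60 with PFNA, 9.54, 9.36 and 9.19 with PFOS and 7.99, 8.07 and 8.14 in control. Its difference of 0.04 had the narrow interval of −0.26 to 0.34 (−0.05 without the 2 arrays), narrower than that of any P450 gene named above. Gsta4 rose against control by 1.34 with PFNA (adjusted p = 5.36e-04) and by 1.30 with PFOS (adjusted p = 0.00115).

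Cyp2b9, a P450 that is higher in female liver, was 10.76, 11.32 and 11.97 with PFNA, 11.95, 11.30 and 11.66 with PFOS and 7.93, 9.35 and 10.07 in control. Its difference was −0.29 (SE 0.41, interval −1.16 to 0.59). Cyp3a44, another P450, gave a difference of 0.01 (interval −0.77 to 0.79), and −0.10 without the 2 arrays. The other genes that rose in each comparison with control, taken by size, were Krt23, an epithelial keratin, Serpinb1a, an inhibitor of neutrophil proteases, the solute carrier Slc35f2 and the zinc importer Slc39a4. Krt23 differed by −0.47 between PFNA and PFOS (interval −1.08 to 0.14) and by −0.12 without the 2 arrays, and its highest value, 8.77, was in PFOS replicate 3. Serpinb1a differed by −0.10, but by 0.29 without the 2 arrays. Slc35f2 differed by −0.15 and −0.15 in these fits and Slc39a4 by 0.25 and 0.40.

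Among the genes that fell in each comparison with control, Cyp17a1, a steroid hydroxylase, had 5.86, 6.63 and 6.82 with PFNA, 6.59, 7.16 and 6.33 with PFOS and 8.37, 8.49 and 8.81 in control. The exposed groups overlapped and both lay below control in every array. PFNA minus PFOS was −0.26 (SE 0.31, interval −0.91 to 0.39), or −0.44 without the 2 arrays, while Cyp17a1 fell by 2.12 with PFNA (adjusted p = 0.00614) and by 1.86 with PFOS (adjusted p = 0.0145). The other 6 such genes fell by smaller amounts and their PFNA minus PFOS differences lay between −0.15 and 0.01. They were Dcaf1, which brings substrates to a ubiquitin ligase (−0.10), the adhesion protein gene Nectin1 (0.01), prothymosin Ptma (0.00), the vitamin K recycling enzyme Vkorc1 (0.01), the endosomal sorting gene Vps37a (−0.02) and the pseudogene Cyp2d37-ps (−0.15). The widest of their 6 intervals was that of Cyp2d37-ps, from −0.43 to 0.13.

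**Figure D2:**
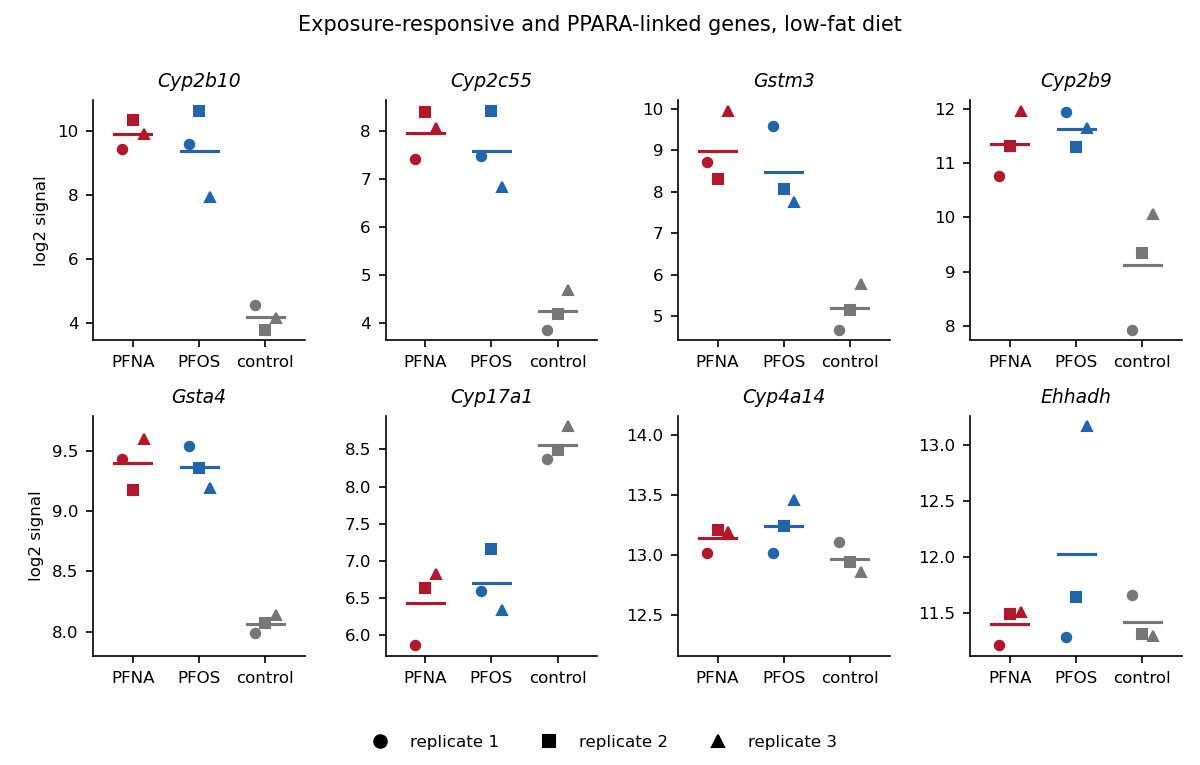
Log2 signal of 8 genes in each PFNA, PFOS and control array on the low-fat diet; points are arrays, shapes mark the replicate and bars are group means. Cyp2b10, Cyp2c55, Gstm3 and Gsta4 are above control in all 6 exposed arrays and Cyp17a1 is below, and the PFNA and PFOS points overlap. Ehhadh is high only in PFOS replicate 3.

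As a list, the CAR and PXR targets (30 measured) had 0 members called between PFNA and PFOS. Their median difference was 0.13, against 0.01 over all genes, and −0.02 without the 2 arrays. The mean log2 signal of the list was 9.06, 9.24 and 9.53 in the PFNA arrays, 9.29, 9.35 and 8.54 in the PFOS arrays and 8.18, 8.36 and 8.23 in control. PFOS replicate 3 was thus nearest to control, and it was the lowest of the 6 exposed arrays for 23 of the 30 members (76.7%), against 25.2% of all genes. The members with the largest differences were Slco1a4, a carrier of organic anions, and Cyp2b13, a female-predominant P450. Slco1a4 had 7.57, 8.58 and 8.52 with PFNA, 7.80, 8.24 and 4.02 with PFOS and 8.15, 7.90 and 9.0 in control. Its difference of 1.54 (interval −0.39 to 3.46) became 0.20 (interval −0.57 to 0.97) without the 2 arrays. Cyp2b13 was scattered in both exposed groups, at 5.61, 6.47 and 9.32 with PFNA and 7.95, 5.38 and 3.98 with PFOS, against 4.0, 3.98 and 3.45 in control. Its difference was 1.36, and 0.47 without the 2 arrays.

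The NRF2 targets, genes of the antioxidant response, had a median difference of −0.02 over 21 measured members, of which 0 were called. Osgin1, an oxidative stress gene, was 10.56, 10.31 and 10.01 with PFNA, 10.23, 9.36 and 9.78 with PFOS and 9.21, 9.61 and 9.68 in control. Its difference was 0.50 with and without the 2 arrays (SE 0.23, interval 0.01 to 0.99, unadjusted p = 0.0451, adjusted p = 0.998). Among 9 measured AHR targets, genes of the dioxin receptor, 0 were called. Aldh3a1, an aldehyde dehydrogenase, had 4.35, 4.03 and 5.53 with PFNA, 3.53, 3.66 and 3.65 with PFOS and 4.10, 3.90 and 4.15 in control. All 3 PFNA arrays lay above all 3 PFOS arrays, with a difference of 1.02 (SE 0.26, interval 0.47 to 1.58, unadjusted p = 0.00114, adjusted p = 0.998). Its signals were near or below the array median except in PFNA replicate 3. Cyp1a2, the main liver P450 under AHR, differed by 0.38 (interval −0.12 to 0.89), and by 0.09 without the 2 arrays.

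No gene of the fatty acid oxidation lists was called, and the PFOS averages above PFNA came with high values in PFOS replicate 3. Over 20 measured genes of peroxisomal oxidation the median difference was −0.18, and −0.03 without the 2 arrays. PFOS replicate 3 was the highest of the 6 exposed arrays for 16 of these 20 (80%), for 15 of 18 genes of mitochondrial oxidation (83.3%) and for 20 of 31 genes of the list of omega-hydroxylation and other PPARA targets (64.5%). Over all genes that share was 21.9%. The mitochondrial list had a median difference of −0.16, and −0.02 without the 2 arrays. For the other PPARA targets the medians were −0.16 and −0.03.

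Ehhadh, the bifunctional enzyme of peroxisomal oxidation, had signals of 11.21, 11.49 and 11.51 with PFNA, 11.28, 11.64 and 13.17 with PFOS and 11.66, 11.31 and 11.29 in control. PFOS replicates 1 and 2 lay within the range of the PFNA and control arrays, and only replicate 3 was apart. The difference was −0.63 (SE 0.40, interval −1.47 to 0.21), and −0.06 (interval −0.40 to 0.29) without the 2 arrays. Acot2, a mitochondrial acyl-CoA thioesterase, had 10.43, 10.95 and 11.10 with PFNA, 11.45, 10.91 and 12.93 with PFOS and 10.47, 10.39 and 10.49 in control. Its difference was −0.94 (interval −1.84 to −0.04, unadjusted p = 0.0422, adjusted p = 0.998), and −0.35 (interval −0.82 to 0.11) without the 2 arrays. Abcd2, a peroxisomal fatty acid transporter, differed by −0.35, and Acot9, another thioesterase, by −0.45. These were −0.03 and −0.27 without the 2 arrays.

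Cyp4a14, the fatty acid omega-hydroxylase that is a standard PPARA readout in mouse liver, was near the top of the scale in all groups. It had 13.02, 13.21 and 13.19 with PFNA, 13.02, 13.24 and 13.46 with PFOS and 13.11, 12.94 and 12.86 in control. PFNA minus PFOS was −0.10 (SE 0.13, interval −0.37 to 0.17), and 0.01 without the 2 arrays. Whether the array resolves differences at such high signals was not tested. Cpt1a, the gate of mitochondrial fatty acid import, differed by 0.06 (interval −0.22 to 0.35) and Vnn1, a pantetheinase under PPARA, by −0.14 (interval −0.60 to 0.33). Both changed sign without the 2 arrays, to −0.07 and 0.06. Cd36, a fatty acid translocase, had 10.04, 10.43 and 10.79 with PFNA, 10.69, 10.38 and 11.49 with PFOS and 8.97, 9.72 and 9.45 in control. It was above control in all 6 exposed arrays, and its difference was −0.43 (interval −1.08 to 0.21), or −0.12 without the 2 arrays. Fgf21, a fasting hormone of the liver, differed by 0.33 (interval −0.68 to 1.35), or 0.11 without them.

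Pdk4, the kinase that shuts off pyruvate oxidation, had 7.20, 6.50 and 7.83 with PFNA, 7.81, 7.45 and 10.55 with PFOS and 6.72, 7.61 and 6.57 in control. PFOS replicate 3 was again the array apart, and the difference of −1.43 (SE 0.81, interval −3.14 to 0.29) became −0.45 (interval −1.26 to 0.36) without the 2 arrays. Cidea, a lipid droplet protein, had 4.45, 4.47 and 5.13 with PFNA, 5.06, 4.37 and 10.99 with PFOS and 4.09, 4.07 and 4.25 in control. Its difference of −2.12 (interval −5.25 to 1.0) was −0.03 (interval −1.62 to 1.56) without the 2 arrays. The related droplet gene Cidec was 8.09, 7.66 and 8.57 with PFNA, 8.99, 7.31 and 10.30 with PFOS and 7.34, 7.09 and 7.04 in control, a difference of −0.76 (interval −2.17 to 0.65). It was −0.04 (interval −1.22 to 1.13) without the 2 arrays.

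**Figure D3:**
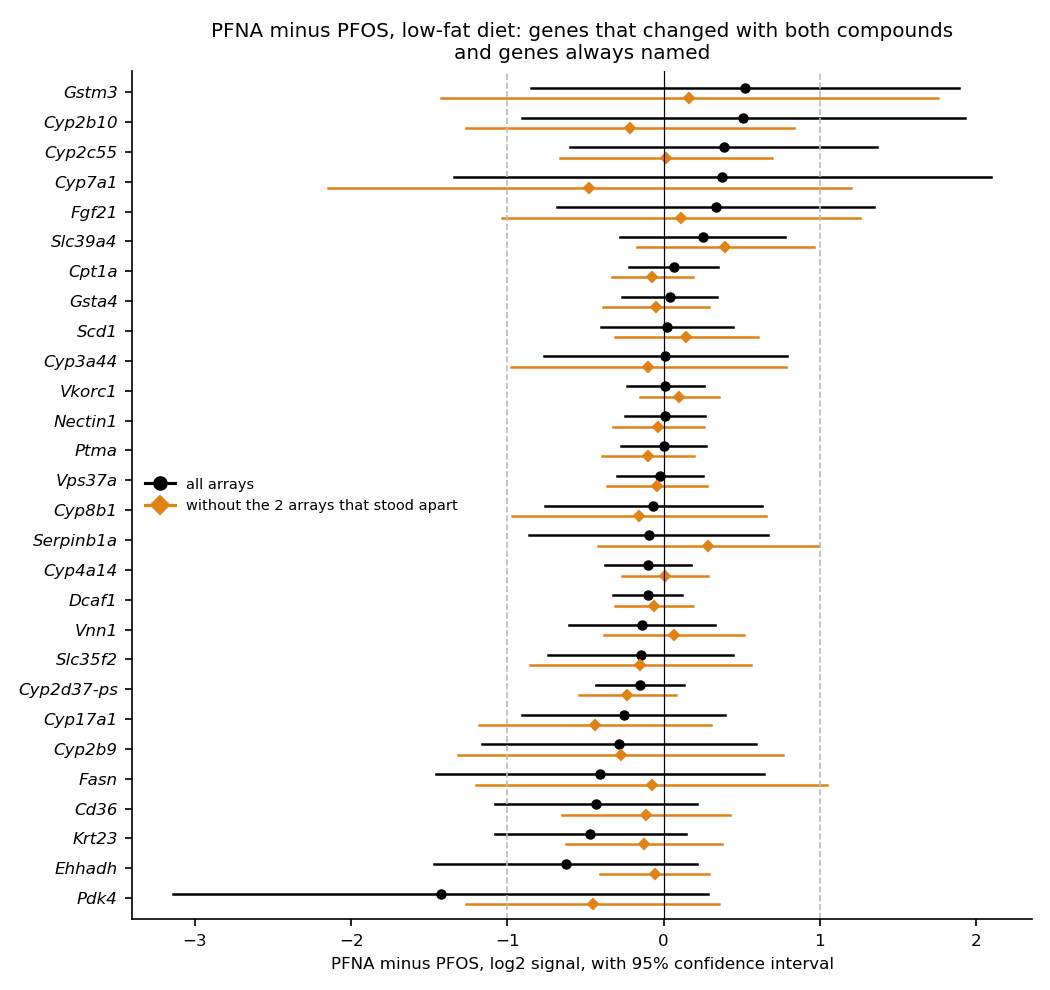
Difference of PFNA minus PFOS in log2 signal on the low-fat diet with its 95% confidence interval, from all arrays (black circles) and without low-fat PFOS replicate 3 and high-fat PFNA replicate 3 (orange diamonds); dashed lines mark 1 log2 unit. Every interval spans 0, Gsta4 and Cpt1a have narrow ones, and that of Pdk4 runs from −3.14 to 0.29.

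The lists of lipid synthesis and storage gave 0 calls. Fatty acid and triglyceride synthesis (25 measured) had a median difference of −0.11, or −0.08 without the 2 arrays, and PFOS replicate 3 was the highest of the 6 arrays for 16 members (64%). Fasn, the fatty acid synthase, was 8.63, 8.57 and 8.46 with PFNA, 8.62, 8.64 and 9.63 with PFOS and 8.05, 7.69 and 8.13 in control, a difference of −0.41 (interval −1.46 to 0.64) that was −0.08 (interval −1.2 to 1.05) without the 2 arrays. Scd1, the stearoyl-CoA desaturase, differed by 0.02 (interval −0.40 to 0.44), and by 0.14 without them. Mogat1, which makes diacylglycerol, and Acacb, the acetyl-CoA carboxylase that curbs fatty acid import into mitochondria, had the largest differences of the list, −0.64 and −0.55. Both were highest in PFOS replicate 3, at 7.73 and 8.05, and their differences were −0.08 and −0.08 without the 2 arrays. The cholesterol list (19 measured) had a median of −0.01, or 0.05 without the 2 arrays, with Dhcr7, the last enzyme of cholesterol synthesis, at −0.38 (interval −1.01 to 0.25) and Fdps, which makes farnesyl diphosphate, at −0.34. Dhcr7 was at −0.21 and Fdps at 0.20 without the 2 arrays. Lipid droplet and lipase genes (20 measured) had a median of −0.09 and lipoprotein genes (18 measured) one of 0.07, and both changed sign without the 2 arrays, to 0.02 and −0.05. In the lipoprotein list Tm6sf2, a gene of lipoprotein secretion, differed by 0.43 (interval −0.26 to 1.12) and Angptl8, an inhibitor of lipoprotein lipase, by 0.29. Both also changed sign, to −0.08 and −0.06.

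Bile acid genes (24 measured) had a median difference of 0.06 with 0 calls, and 0.01 without the 2 arrays. Cyp7a1, the rate-limiting enzyme of bile acid synthesis, was 9.03, 9.57 and 10.14 with PFNA, 9.63, 10.48 and 7.50 with PFOS and 10.32, 11.40 and 9.11 in control. It varied by more than 1 log2 unit within each group, so its difference of 0.38 carried an interval of −1.34 to 2.1. Without the 2 arrays the difference turned to −0.48 (interval −2.15 to 1.2). Cyp8b1, the sterol hydroxylase that sets the share of cholic acid, differed by −0.07 (interval −0.76 to 0.63), and by −0.16 without them. Fgfr4, the receptor through which gut signals curb bile acid synthesis, had 7.70, 7.54 and 7.53 with PFNA, 7.52, 7.37 and 6.6 with PFOS and 7.25, 6.94 and 7.41 in control. Its PFNA arrays all lay above its PFOS arrays, with a difference of 0.43 (interval −0.02 to 0.87) that was 0.14 without the 2 arrays. Slco1a1, an uptake carrier that is higher in male liver, had 10.42, 10.23 and 8.92 with PFNA, 9.55, 9.72 and 7.41 with PFOS and 10.94, 10.35 and 10.62 in control. The third replicate was the lowest in both exposed groups, and the difference was 0.96 (interval −0.40 to 2.33), or 0.22 without the 2 arrays. The transporter list (20 measured) had a median of 0.13, with the efflux pump Abcc4 at −0.37. The median was 0.06 and Abcc4 was at −0.13 without the 2 arrays.

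**Figure D4:**
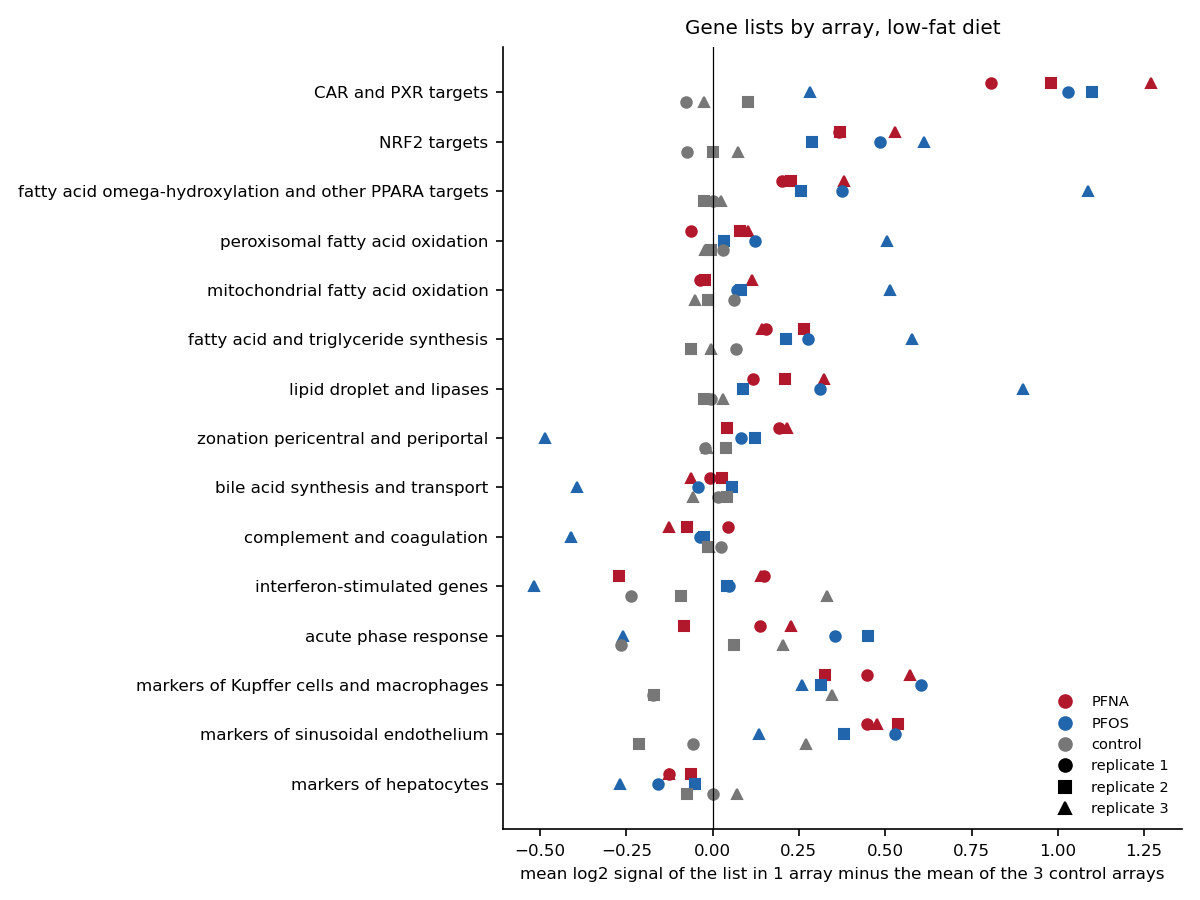
Mean log2 signal of 15 gene lists in each array minus the mean of the 3 control arrays (horizontal axis) on the low-fat diet, with PFNA above PFOS above control in each row; shapes mark the replicate. PFOS replicate 3 (blue triangle) lies apart from the other 5 exposed arrays for the PPARA, oxidation, lipid droplet, zonation and CAR and PXR lists, while PFOS replicates 1 and 2 lie among or beside the PFNA arrays.

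Genes of liver zonation and of secreted plasma proteins had their lowest values mostly in PFOS replicate 3, with 0 called. The zonation list (19 measured) pooled pericentral and periportal genes, so its median cannot show a shift between zones. It had a median difference of 0.34, which was 0.05 without the 2 arrays. PFOS replicate 3 was the lowest of the 6 arrays for 16 members (84.2%). The members with the largest differences were Lect2, a secreted hepatokine, and Sult5a1, a sulfotransferase. Lect2 had 9.80, 9.54 and 9.96 with PFNA, 9.74, 9.37 and 8.55 with PFOS and 9.34, 9.50 and 9.26 in control, a difference of 0.55 (interval 0.05 to 1.04, unadjusted p = 0.0328, adjusted p = 0.998) that was 0.21 without the 2 arrays. Sult5a1 differed by 0.55 (interval −0.24 to 1.33), or 0.12 without them. Complement and coagulation genes (25 measured) had a median of 0.13, with PFOS replicate 3 lowest for 16 (64%). Their largest differences were those of F11, a clotting factor, at 0.32, and C9, of the membrane attack complex, at 0.30. Without the 2 arrays the median was −0.03 and C9 was at 0.01, and the F11 estimate was slightly negative. Hepatokines and other lipid-linked secreted factors (17 measured) had a median of 0.07, with Igfbp1, the insulin-repressed binding protein of growth factors, at −0.76 (interval −1.95 to 0.44). The median and Igfbp1 were at −0.03 and −0.32 without the 2 arrays.

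Metabolic lists outside lipids also gave 0 calls. Glucose metabolism (19 measured) had a median of 0.06 and the urea cycle with amino acid catabolism (19 measured) one of 0.04. Both changed sign without the 2 arrays, to −0.10 and −0.03. PFOS replicate 3 was the lowest of the 6 arrays for 11 of 19 genes (57.9%) in each list, and PFOS replicate 2 the highest for 12 of the 19 urea cycle and amino acid genes (63.2%). In that list Prodh, which breaks down proline, differed by 0.53 (interval −0.23 to 1.29) and Nags, which makes the activator of the urea cycle, by 0.20. Prodh and Nags were at 0.03 and −0.01 without the 2 arrays. Respiratory chain subunits (22 measured) had a median of −0.08, or 0.02 without the 2 arrays, with PFOS replicate 3 highest for 16 (72.7%). Cytochrome c, encoded by Cycs, was 9.97, 10.06 and 10.01 with PFNA, 9.91, 9.89 and 11.09 with PFOS and 10.28, 10.08 and 10.16 in control. Only PFOS replicate 3 was apart, and the difference of −0.28 (interval −0.88 to 0.31) was 0.11 without the 2 arrays. Uqcrc1, a subunit of the cytochrome bc complex, differed by 0.26 (interval −0.06 to 0.57), with every PFNA array above every PFOS array, and by 0.10 without the 2 arrays. Retinoid and steroid genes (15 measured) had a median of 0.03, or −0.06 without them. Of these Cyp26b1, which degrades retinoic acid, differed by 0.52 (interval 0.08 to 0.96, unadjusted p = 0.0223, adjusted p = 0.998) and Hsd11b1, which activates glucocorticoids, by 0.42 (interval −0.27 to 1.12). Without the 2 arrays Cyp26b1 differed by 0.33 (interval −0.12 to 0.78), and Hsd11b1 turned to −0.10 (interval −0.45 to 0.26).

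Sex-patterned genes varied within both groups. Hsd3b5, a male-specific steroid enzyme, had 9.15, 8.67 and 5.38 with PFNA, 7.0, 7.83 and 3.83 with PFOS and 8.78, 8.74 and 8.52 in control. The third replicate was the lowest in each exposed group, and the difference of 1.51 had an interval of −0.57 to 3.60. It was 0.32 without the 2 arrays. The male-predominant list (20 measured) had a median of 0.08 and the female-predominant list (18 measured) one of 0.01, where Cyp39a1, an oxysterol hydroxylase, differed by 0.63 (interval −0.58 to 1.85), or 0.10 without the 2 arrays. Clock genes (18 measured) had a median of 0.12, with the clock output gene Dbp at 0.45 (interval −0.17 to 1.07) and the repressor Nr1d1 at 0.38. Without the 2 arrays the median turned to −0.02, with Dbp at 0.17 and Nr1d1 at 0.24, and PFOS replicate 3 was the lowest of the 6 arrays for 12 of the 18 (66.7%). The hour of tissue collection is not given in the sources used here.

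Lists of growth, stress and inflammation gave 0 calls as well. Cell cycle genes (23 measured) had a median difference of 0.07, and PFNA replicate 3 was the highest of the 6 arrays for 11 of them (47.8%), against 16.4% of all genes. Aurkb, a mitotic kinase, was 4.84, 4.75 and 4.71 with PFNA, 4.38, 4.29 and 4.08 with PFOS and 4.64, 4.96 and 4.48 in control, so that its PFNA arrays lay among the controls and above the PFOS arrays. Its difference was 0.52 (interval 0.13 to 0.90, unadjusted p = 0.0118, adjusted p = 0.998). Mcm5, a subunit of the replicative helicase, was 5.70, 5.21 and 5.52 with PFNA, 5.16, 5.07 and 4.98 with PFOS and 4.80, 5.06 and 4.84 in control, a difference of 0.41 (interval 0.10 to 0.71, unadjusted p = 0.0113, adjusted p = 0.998). The p53 targets (15 measured) had a median of −0.05, with Trp53inp1, a stress-induced p53 cofactor, at −0.35 and the death receptor Fas at −0.28, or −0.09 without the 2 arrays. Genes of endoplasmic reticulum stress (19 measured) had a median of 0.06, or 0.01 without the 2 arrays, with asparagine synthetase Asns at −0.21 (0.10 without them) and the transcription factor Atf3 at 0.17 (0.26 without them). Immediate-early genes (21 measured) had a median of −0.01, with the stress gene Gadd45b at −0.69 (interval −1.40 to 0.02) and the transcription factor Jun at 0.49 (interval −0.17 to 1.16). Interferon-stimulated genes (21 measured) had a median of 0.14, which was −0.04 without the 2 arrays. PFOS replicate 3 was the lowest array for 16 of them (76.2%), among them Irf7, a regulator of interferon genes, at 6.97 against 8.21 and 8.56 in the other PFOS arrays. The interferon brake Usp18 differed by 0.40 (interval −0.19 to 1.0).

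The acute phase list, of plasma proteins induced by inflammation, had a median of −0.03 over 22 measured genes. Here PFOS replicate 2 was the highest array for 8 members (36.4%), against 15% of all genes. That array was also the highest for 5 of 8 cholangiocyte markers (62.5%) and 12 of 30 CAR and PXR targets (40%). PFOS replicate 3 was the lowest for 11 of the 22 (50%), and the median was −0.13 without the 2 arrays. Saa2, serum amyloid A, had 7.43, 6.84 and 7.86 with PFNA, 8.47, 10.25 and 7.68 with PFOS and 7.05, 8.07 and 8.63 in control. PFOS replicate 2 was above every other array, and the difference was −1.42 (SE 0.84, interval −3.19 to 0.34). It was −1.98 (interval −3.99 to 0.03) without the 2 arrays. Orm3, an orosomucoid, differed by 0.59 (interval −0.82 to 2.0), and by −0.35 without the 2 arrays.

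No marker of the liver cell types was called between the compounds. In whole tissue, fewer cells of a type and less RNA per cell cannot be told apart. Median differences were 0.06 for hepatocytes (9 measured), −0.09 for stellate cells and fibrosis (19), 0.09 for Kupffer cells and macrophages (19), 0.17 for sinusoidal endothelium (15), 0.04 for lymphocytes (14), −0.12 for neutrophils (10), −0.13 for cholangiocytes (8), 0.19 for adipocytes (9), 0.05 for exocrine pancreas (10) and 0.00 for erythroid cells (2), with 0 calls in all. Without the 2 arrays those of endothelium, macrophages and lymphocytes were 0.04, 0.01 and −0.07, and that of cholangiocytes was −0.25. The endothelial markers averaged 8.20, 8.29 and 8.23 in PFNA arrays, 8.28, 8.13 and 7.89 in PFOS arrays and 7.70, 7.54 and 8.02 in control arrays, with PFOS replicate 3 the lowest exposed array for 11 of 15 (73.3%). The Kupffer and macrophage markers averaged 7.10, 6.98 and 7.22 with PFNA, 7.26, 6.97 and 6.91 with PFOS and 6.48, 6.48 and 7.0 in control. Both lists thus overlapped between the compounds. The members with the largest differences were Bmp2 in endothelium (0.47, interval −0.09 to 1.03), the scavenger receptor Marco (0.41) and the lysosomal glycoprotein Gpnmb (−0.45) in macrophages, desmin Des (0.46) and collagen Col3a1 (−0.33) in stellate cells, and Hnf4a, the master regulator of hepatocytes (0.24). Bmp2 was at 0.14, Marco at 0.10, Gpnmb at −0.02, Des at 0.30 and Col3a1 at −0.03 without the 2 arrays. Lymphocyte, neutrophil and erythroid marker means lay near or below the array median in all 9 arrays.

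The 38 lists together held 623 different measured genes, with 0 called, 10 (1.61%) at an unadjusted p under 0.05 and 539 (86.5%) with an interval within 1 log2 unit. Over all 22180 genes these shares were 776 (3.5%) and 21592 (97.3%). The 3 PFNA arrays lay above the 3 PFOS arrays for 17 list genes (2.73%), against 4.63% of all genes, and below for 18 (2.89%), against 4.18% of all genes. Peroxisomal Acaa1a, Acaa1b and Decr2 were among the lower ones, by −0.25, −0.25 and −0.22 (−0.15, −0.11 and −0.15 without the 2 arrays). They were named after their values were seen. Acaa1b, a peroxisomal thiolase, had 11.74, 11.85 and 11.88 with PFNA and 11.91, 11.96 and 12.36 with PFOS, so its groups did not overlap but lay close together (interval −0.52 to 0.02).

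Because no gene was called, the genes with the smallest unadjusted p are given as values that did not pass. Those with higher estimates in PFNA included Olfr1246, Olfr535, Ifna2, Il3, Tns4, Tube1, Hirip3, Apobec2 and S1pr3 beside Aldh3a1. Most of their signals lay near or below the array median. Ifna2, an interferon gene, had 3.54, 3.79 and 4.23 with PFNA, 2.73, 2.66 and 3.12 with PFOS and 3.48, 3.49 and 3.04 in control (difference 1.02, interval 0.47 to 1.57, adjusted p = 0.998). S1pr3, a sphingosine phosphate receptor, had 5.26, 4.88 and 5.08 with PFNA, 4.67, 4.47 and 4.13 with PFOS and 4.91, 5.12 and 4.92 in control, so that the PFOS arrays were the ones away from control.

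Those with lower estimates in PFNA were Il1r2, Olfr1487, Vmn1r7 and Gask1b at low signal, and Rere, Zfand2a, Irf2bp2, Gtf2b, Cox16 and Rfesd at moderate signal. Irf2bp2, a corepressor, had 7.18, 7.59 and 7.31 with PFNA, 7.75, 7.73 and 7.85 with PFOS and 8.17, 7.95 and 7.94 in control. The 3 groups did not overlap and PFNA was the farthest from control. The difference was −0.42 (SE 0.12, interval −0.68 to −0.15, unadjusted p = 0.00382, adjusted p = 0.998), while against control Irf2bp2 fell by 0.66 with PFNA (adjusted p = 0.0209) and the PFOS estimate was −0.24 (adjusted p = 0.462). Zfand2a, a stress-induced protein gene, had 6.74, 6.66 and 6.62 with PFNA, 7.18, 7.24 and 7.24 with PFOS and 7.0, 6.98 and 7.50 in control. Its difference was −0.55 (interval −0.88 to −0.21, adjusted p = 0.998), with and without the 2 arrays of nearly the same size (−0.54 without).

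Several of the widest differences came from 1 array. Genes whose signal in 1 array was at least 2 log2 units above all other exposed low-fat arrays numbered 19 in PFNA replicate 3, 4 in PFOS replicate 2, 17 in PFOS replicate 3 and 0 in each of the other 3. Only PFOS replicate 3 had genes that far below the other 5, namely Slco1a4 and the pseudogene Cyp2c53-ps. The named examples were picked after their values were seen. In PFNA replicate 3 the 19 included genes of cornified squamous epithelium. Krt4, a keratin of the oesophagus and similar linings, had 4.22, 3.46 and 9.52 with PFNA, 3.90, 3.48 and 3.69 with PFOS and 3.68, 3.90 and 3.96 in control. The cornified envelope gene Cnfn was at 9.34 in PFNA replicate 3, against 5.02 to 5.68 in the other exposed arrays. Krt13 (8.09), Krtdap (7.75), Lor (6.82) and Sprr3 (5.97) had the same single high array, as did the skeletal muscle genes Acta1 (8.12), Pygm (7.18) and Sln (4.95). Over all genes PFNA replicate 3 was the highest of the 6 arrays for 16.4%. Whether other tissue was present in that sample was not tested.

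In PFOS replicate 2 the 4 genes were Dmbt1, Gabrp, Chil4 and Reg1. The mucosal glycoprotein gene Dmbt1 had 2.41 to 2.73 with PFNA, 2.90, 8.13 and 2.70 with PFOS and 2.12 to 3.04 in control. Gabrp, a GABA receptor subunit of epithelia, was 3.5 or less in all low-fat arrays except this one, where it was 6.39. The cholangiocyte marker Muc1, an epithelial mucin, was 4.98, 5.0 and 5.35 with PFNA and 5.2, 7.12 and 4.73 with PFOS, and the cholangiocyte list averaged 4.28 to 4.34 with PFNA and 4.87 in PFOS replicate 2. These values moved together with Saa2 in 1 array, and their part in the acute phase result was not tested.

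In PFOS replicate 3 the genes included Cidea and Pdk4 above, and Sptlc3, a subunit of the enzyme that starts ceramide synthesis. Sptlc3 had 4.88, 4.27 and 5.0 with PFNA, 4.49, 4.44 and 9.66 with PFOS and 3.73, 3.55 and 3.12 in control. Its difference of −1.48 (SE 1.2, interval −4.01 to 1.05) was 0.25 (interval −0.30 to 0.80) without the 2 arrays. Fabp4, a fatty acid carrier of adipocytes and macrophages, was 6.28 to 7.10 with PFNA and 6.36, 6.17 and 9.13 with PFOS. Its difference of −0.60 turned to 0.36 without the 2 arrays.

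**Figure D5:**
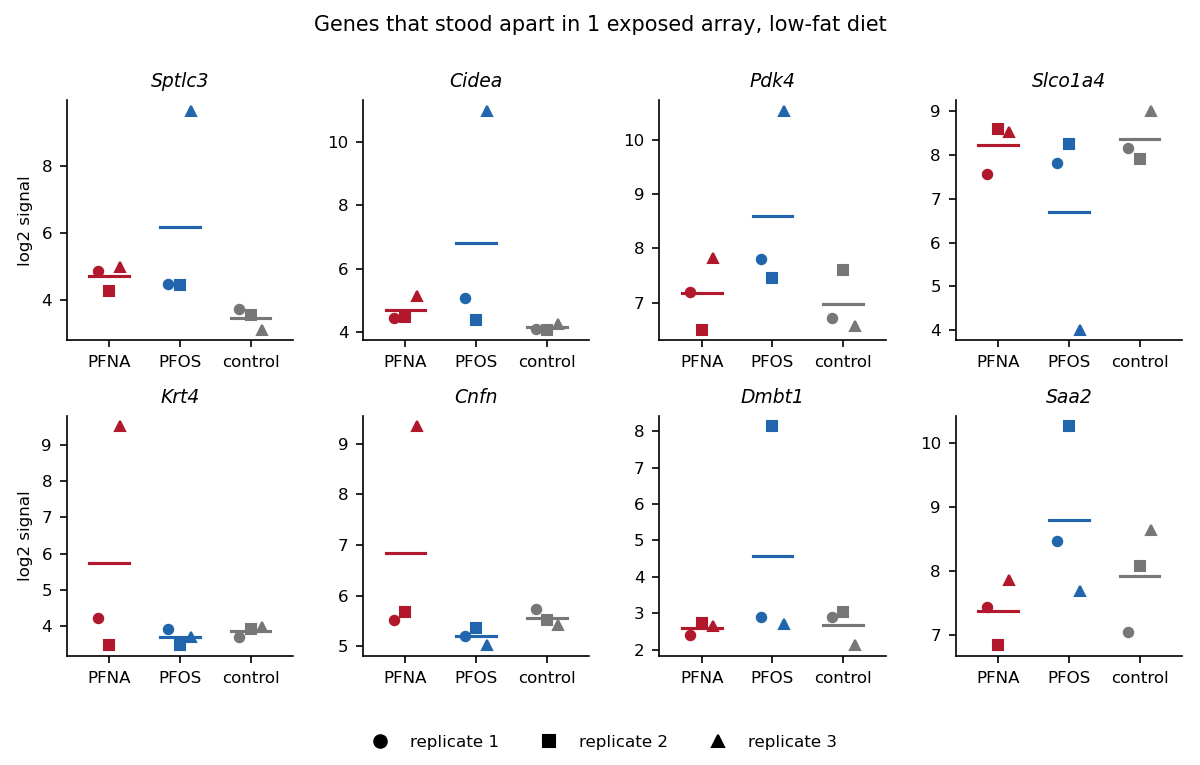
Log2 signal of 8 genes in each PFNA, PFOS and control array on the low-fat diet; points are arrays, shapes mark the replicate and bars are group means. Sptlc3, Cidea and Pdk4 are high and Slco1a4 is low in PFOS replicate 3, Krt4 and Cnfn are high in PFNA replicate 3, and Dmbt1 and Saa2 are high in PFOS replicate 2.

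PFNA and PFOS were also compared on the high-fat diet, to ask whether their difference depended on the diet. With all arrays, high-fat PFNA minus high-fat PFOS had 1 call among 34472 probes (0.0029%), Slc22a30, an organic ion carrier, which was higher with PFNA by 1.36 (SE 0.19, adjusted p = 0.0472). It was not called when any 1 of the 6 high-fat arrays was left out (adjusted p 0.0646 to 0.484), nor with a replicate block (adjusted p = 0.185). Quantile normalization, median centring and the groups compared only gave no call of Slc22a30 either (adjusted p 0.0873 to 0.678). Slc22a30 was called without the 2 arrays that stood apart (1.26, adjusted p = 0.00417). It also was with trend and robust variances, array weights or only probes above the median signal (adjusted p 0.0264 to 0.0433). On the low-fat diet its difference was 0.11. The test of whether PFNA minus PFOS differed between the diets, low-fat minus high-fat, gave 0 calls (0%), with 1171 probes under the unadjusted threshold. Without low-fat PFOS replicate 3 and high-fat PFNA replicate 3, PFNA minus PFOS on the high-fat diet had 510 calls (1.48%), 259 higher and 251 lower, and the difference between the diets had 31 (0.0899%). Leaving out high-fat PFNA replicate 3 alone gave 1 call on the high-fat diet, Fbp2, a gluconeogenic enzyme that was lower with PFNA by 1.91 (adjusted p = 0.00392), and 0 calls between the diets. Low-fat PFOS replicate 3 is not part of the high-fat comparison and enters it through the shared estimate of the spread, and the 510 calls were obtained with both arrays omitted.

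Without the 2 arrays, the difference between the diets was called for 8 of 623 list genes (1.28%), against 21 of all 22180 genes (0.0947%). The arrays were omitted on account of their values, and the lists were written with earlier results of these data known. These shares are therefore not independent evidence about the lists. The 8 included 1 of 20 peroxisomal genes and 3 of 31 other PPARA targets. Among them were also 1 of 30 CAR and PXR targets and 1 of 22 respiratory chain subunits. By the probe that represented each gene, none of the mitochondrial oxidation, lipid synthesis, cholesterol, droplet or lipoprotein genes was called between the diets. In the same fit, PFNA minus PFOS on the high-fat diet did call members of these lists. Called lower with PFNA were 3 of 18 mitochondrial, 3 of 25 synthesis, 4 of 19 cholesterol and 4 of 20 droplet genes. Called higher were 1 synthesis gene and 2 of 18 lipoprotein genes, against 230 higher and 209 lower of all 22180 genes. Another probe of Lpl, a lipase gene of the droplet list, was among the 31 (1.705 log2 units, limma adjusted p = 0.0162). Sptlc3, which is in none of the lists, was 4.31, 4.40 and 9.55 with PFNA on the high-fat diet and 9.53, 9.61 and 8.88 with PFOS, so that PFNA replicates 1 and 2 were low and the other 4 arrays high. On the low-fat diet only PFOS replicate 3 lay at that high level. The difference between the diets in PFNA minus PFOS was 1.77 (SE 1.70) with all arrays and 5.24 (SE 0.36, adjusted p = 1.2e-05) without the 2 arrays. Ehhadh was 11.70, 11.51 and 13.18 with PFNA and 12.91, 13.26 and 13.12 with PFOS on the high-fat diet, with a difference between the diets of 0.34 (SE 0.56) and, without the 2 arrays, 1.44 (SE 0.23, adjusted p = 0.0249). Slco1a4 ran the other way, at 8.28, 8.68 and 4.91 with PFNA and 4.49, 4.08 and 4.58 with PFOS on the high-fat diet. Cyp2b10, whose intervals spanned 0 on both diets, was 10.63, 9.75 and 7.70 with PFNA and 7.26, 9.28 and 8.91 with PFOS on the high-fat diet and was not among the 31.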

How the data were processed

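Total RNA of liver, extracted with Trizol and labelled with biotin per the labels' protocols, was measured on 18 arrays. The authors deposited 1 log2 value per probe and array, and the submitters' processing notes name Transcriptome Analysis Console as the tool. Its version and the steps of background correction and normalization are not stated in the sources used here. The base of the logarithm was read from the range of the values. Of 34472 probes, 23521 had 1 gene symbol, 1814 several and 9137 none, and the 22180 symbols were each represented by the probe with the highest mean signal. All probes were tested.

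All 18 arrays entered 1 model with a mean for each group, fitted in limma 3.58.1 under R 4.3.3 (12 residual and 5.21 prior degrees of freedom), without a replicate block, and its steps were tested on simulated data. Adjusted p-values follow Benjamini and Hochberg over all probes of a comparison, and a probe was called under 0.05. Errors are standard errors of this fit and intervals are 95% intervals, with n = 3 arrays a group, whose number limits the precision. The labels call the arrays biological replicates and tie no number to a litter or day, so the main fit did not pair them. Over all probes, same-numbered PFNA and PFOS arrays did not deviate together (correlations of −0.021, −0.00328 and −0.0162). An effect shared by few genes could not show in such correlations.

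The comparison, the 38 gene lists and the rule for naming genes were chosen with earlier results of these data known. The rule took up to 10 genes in each direction by size among the called genes, or else by smallest unadjusted p, the 2 members of each list with the largest difference, the 10 genes in each direction called against control in both compounds with the largest mean change, and a set of known exposure genes, of which Cyp4a10 had no probe of its own. Gene models, small RNAs and receptor segments were left out. Probes of near-identical genes, as in the Cyp2b and glutathione transferase families, may share signal, which was not tested.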

Additional observations from a re-analysis of the deposited data

Results flagged for a closer look

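Of the results given above, the difference between the diets in PFNA minus PFOS drew attention in the fit without low-fat PFOS replicate 3 and high-fat PFNA replicate 3, by its own test of low-fat minus high-fat. That fit called 31 probes, and with all arrays the count was 0 (limma, 1171 probes under an unadjusted p of 0.05). Of the named genes, those with a positive difference between the diets were Sptlc3 at 5.24 log2 units (SE 0.36), Pdk4 at 3.08 (SE 0.54), Fabp4 at 2.94 (SE 0.35), Ehhadh at 1.44 (SE 0.23) and Cycs at 1.07 (SE 0.18). Those with a negative one were Slco1a4 at −3.89 (SE 0.51) and Hsd11b1 at −1.60 (SE 0.24). For each of these 7 genes the high-fat difference in that fit was the larger in size, and the low-fat difference lay between −0.45 and 0.36. Both arrays were omitted on account of their values, so the tests are not independent evidence.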

How the results depend on the processing

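PFNA minus PFOS on the low-fat diet gave 0 calls under every alternative run, which were quantile normalization, median centring, probes above the median signal, the groups compared only, the 9 low-fat arrays only, trend and robust variances, array weights, a replicate block, each of the 6 arrays left out in turn, the 2 arrays that stood apart left out, and low-fat PFOS replicate 3 with low-fat PFNA replicate 3 left out, the last of which was added after seeing the data. The replicate block gave 0 calls for that comparison, 208 for PFNA against control, 114 for PFOS against control, and 0 on the high-fat diet and between the diets. PFNA against control, 195 calls, had 302 with centring, 591 above the median signal, 51 with 9 arrays, 388 with trend and robust variances, 532 with array weights, 593 without the 2 arrays and 26 to 127 with 1 array left out. PFOS against control, 134 calls, had 85 with quantile normalization, 270 above the median signal, 6 with the groups compared only, 29 with 9 arrays, 276 with array weights, 454 without the 2 arrays and 22 to 260 with 1 array left out. PFNA minus PFOS on the high-fat diet, 1 call, had 0 with quantile normalization, centring, the groups compared only and the replicate block, 510 without the 2 arrays and 0 to 1 with 1 array left out, where the 1 was Fbp2, lower with PFNA, and not Slc22a30. The difference between the diets, 0 calls, had 31 without the 2 arrays and 0 with any 1 array left out. Fewer probes or arrays enter some of these fits, and the cause of the other shifts was not tested. Of 1958 differences of 124 named genes over 16 settings, 0 were called and 119 changed sign, 74 of them in settings without PFOS replicate 3. The number of arrays limits the precision. No detection call was used, so values near the array median may be background.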
